A study of Mus musculus with 27 samples.

Results

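Hearts of E10.5 mouse embryos (Ca) were compared with 3 other tissues of the same stage, the branchial arch (BA), the tail bud (TB) and the forelimb bud (FLB), by RNA-seq of whole tissue. There were 3 libraries per tissue, so 12 of the 27 libraries of the series were used. All 4 tissues came from embryos of the Slc:ICR strain at E10.5, without a named mutation, transgene or treatment, and according to the methods they were amputated from 3 embryos, with no sorting of cells named. Each library therefore holds every cell type of its piece of tissue, and in such bulk samples fewer cells of a type and less RNA per cell cannot be told apart. A gene was called heart-specific when it differed in the same direction from the mean of the 3 tissues and from each of them singly. The tests used limma, a linear model across all genes, with an adjusted p under 0.05 in all 4 contrasts. Values are CPM (the reads of a gene when those of the library are scaled to 1000000) scaled between libraries, and a log2 difference is the difference of the mean log2(scaled CPM + 0.5).

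At this stage the heart is a looped tube whose muscle layer, the myocardium, beats and pumps blood while atria, ventricles, the atrioventricular canal and the outflow tract are still taking shape. Cardiac identity is held by a network of transcription factors of the NKX2, GATA, T-box, HAND and MEF2 families, which act together on genes for contraction and excitation. Beneath the myocardium lies the endocardium, the endothelial lining that gives rise to cushion mesenchyme, and a sheet of cells from the proepicardium spreads over the outside as the epicardium. The other tissues are largely mesenchyme under an epithelial cover and contain no myocardium of their own.

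The label was checked with 3 cardiac genes. Myl2 (chromosome 5, 122092724 to 122113473 in GRCm38), the regulatory myosin light chain of ventricular muscle, had 4217, 3318 and 3151 CPM in Ca replicates 1 to 3 and at most 0.506 CPM in the other 9 libraries. Its log2 difference from the mean of the 3 tissues was 12.24 (SE 0.15, limma adjusted p = 2.11e-24). Nkx2-5 (chromosome 17, 26838664 to 26844988), an early homeodomain factor of the cardiac lineage, had 176, 131 and 150 CPM in Ca and 1.48, 2.94 and 3.35 CPM in BA. It was listed at 0 in all 6 TB and FLB libraries, and its log2 difference was 7.39 (SE 0.19, limma adjusted p = 4.59e-19). Tbx20 (chromosome 9, 24720812 to 24774303), a T-box factor of myocardium and endocardium, had 453, 390 and 411 CPM in Ca, 0.114, 0.707 and 5.14 CPM in BA and at most 0.348 CPM in TB and FLB. Its log2 difference was 8.91 (SE 0.54, limma adjusted p = 2.72e-07), and 9.21 without BA replicate 3. All 3 genes lay higher in each heart library than in any of the other 9, as did 29.1% of all genes tested. The other tissues also carried their own markers. Barx1, a homeobox gene of arch mesenchyme, was at 154 to 178 CPM in BA against 3.95 to 8.11 in Ca, and Hoxc13, a gene of the posterior body, was at 79.7 to 89.8 CPM in TB against at most 0.276 in Ca. Lhx9, a LIM homeobox gene of limb mesenchyme, was at 146 to 168 CPM in FLB against 5.53 to 9.39 in Ca.

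**Figure D1:**
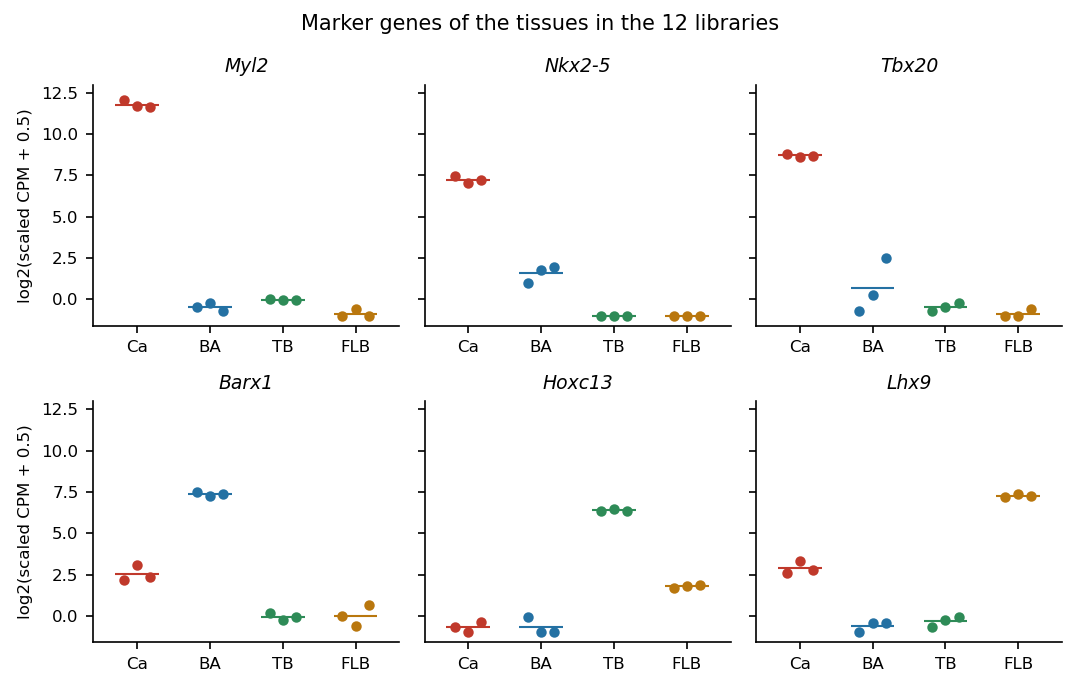
Level of the 3 cardiac markers (top row) and of 1 marker for each of BA, TB and FLB (bottom row). Each point is 1 library and each short line the mean of 3, on a log2(scaled CPM + 0.5) axis; points at -1 are libraries listed at 0. The 3 heart libraries stand above all 9 others for Myl2, Nkx2-5 and Tbx20, with BA replicate 3 the highest of the 9 for Tbx20.

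The heart libraries held 7431877 to 8344868 reads on genes, the BA libraries 8077249 to 8541932, the TB libraries 7616811 to 8443236 and the FLB libraries 5543787 to 5908839. The floor of detection was set at 3 reads, which was at most 0.528 CPM. Some libraries stood apart from their replicates. Ca replicate 2, and less so replicate 3, had high values of genes typical of liver: Afp, the fetal serum protein alpha-fetoprotein, was at 35.8, 1466 and 231 CPM, and Alb (albumin) at 2.63, 142 and 20.7 CPM in Ca replicates 1 to 3, against at most 0.885 and 0 CPM elsewhere. The serum protein genes Itih2 (3.03, 132 and 26.8 CPM) and Serpina6 (1.97, 92.0 and 15.3 CPM) showed the same order. These 4 genes and the gene model Gm9781, listed near 0 in Ca replicate 1 and at 46.5 and 21.3 CPM in the others, had the widest range over the hearts among genes with a mean of at least 16 CPM. Ca replicate 3 had the highest values of several epithelial and mesenchymal genes that are low in heart, described with those genes. BA replicate 3 had the highest cardiac values of the BA libraries, with Myh7 at 11.2 CPM against 0.798 and 0.707 in the other BA libraries. The part of these libraries in each result was not tested, and counts without each heart library are given with the totals.

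Among 13895 genes tested, 5237 were higher (37.7%) and 5725 lower (41.2%) in heart than the mean of the 3 tissues. Against single tissues the counts were 5063 higher (36.4%) and 5329 lower (38.4%) for BA, 4957 (35.7%) and 5311 (38.2%) for TB, and 5080 (36.6%) and 5324 (38.3%) for FLB. Heart-specific by the full rule were 3933 higher (28.3%) and 3910 lower genes (28.1%). The split depended on the scaling, with 3260 higher and 4854 lower for CPM as deposited and 4137 and 3671 with median-of-ratios scaling. The median log2 difference of all genes, -0.05 here, was -0.17 with CPM as deposited. Without Ca replicate 1, 2 or 3 there were 3399, 3514 and 3554 higher and 3677, 3774 and 3818 lower genes. With 1 heart library left out, a gene on in heart only reaches 1 CPM in 2 libraries and is not tested. When 2 libraries were enough, the higher counts were 3747, 3848 and 3895.

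The higher and lower genes were similar in number but not in the size of their differences. Taking for each gene the smallest of its 3 differences from single tissues, 1688 genes were at least 2-fold higher and 636 at least 2-fold lower. At least 16-fold it was 181 higher and 5 lower genes, and at least 64-fold 67 and 0. A decrease is limited by the level of the gene in the other tissues and by the 0.5 added before the logarithm, so these counts are not measured over the same range.

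**Figure D2:**
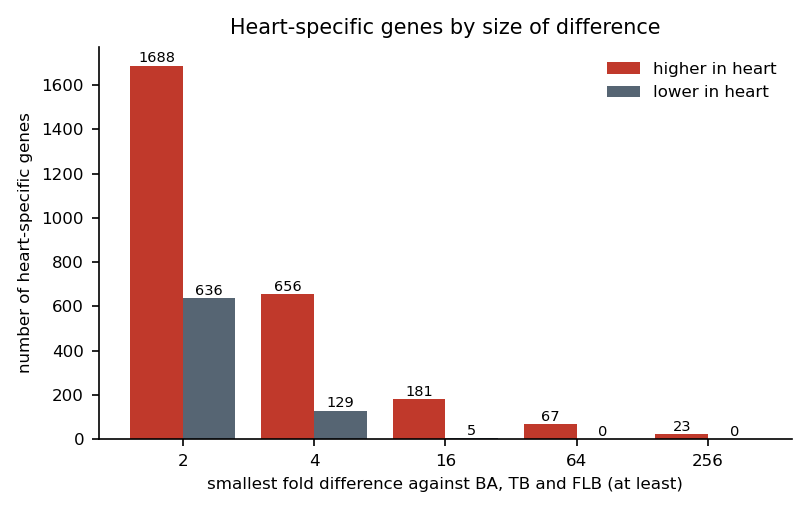
Number of heart-specific genes (vertical axis) whose smallest difference from BA, TB and FLB was at least 2-, 4-, 16-, 64- or 256-fold (horizontal axis), higher (red) or lower (grey) in heart. At least 2-fold there were 1688 higher and 636 lower genes, and at least 256-fold 23 and 0.

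Of 30 cardiac transcription factors tested, 17 were higher in heart (56.7%, beside 28.3% of all genes tested) and none was lower. The other 13 did not meet the rule, and the list had a median log2 difference of 2.25 against -0.05 over all genes tested. The zinc finger factor Gata4 stood at 360, 322 and 326 CPM in Ca, at 2.17 to 2.82 CPM in FLB and at most 1.67 CPM in BA and TB, a log2 difference of 8.19 (SE 0.38, limma adjusted p = 3.59e-09). Its relatives Gata5 (72.8 to 78.6 CPM) and Gata6 (142 to 145 CPM) were at most 2.64 and 7.39 CPM elsewhere. Mef2c, a MADS-box factor of muscle genes, was at 146, 140 and 122 CPM in Ca and at 13.7 to 23.1 CPM in the other libraries. Myocd, the coactivator of the serum response factor Srf, was at 66.6, 62.9 and 69.9 CPM against at most 4.41. Srf itself differed less, with 195, 170 and 176 CPM against 71.3 to 103. The ventricular factors Irx4 and Hey2 had log2 differences of 3.66 (SE 0.12) and 3.79 (SE 0.14), and the homeodomain proteins Hopx and Prox1 of 6.30 (SE 0.16) and 3.11 (SE 0.15). In each of these genes the 3 heart libraries lay above all 9 others, as they did in 29.1% of all genes tested.

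Several factors known for their part in heart development were at similar or higher levels in another tissue and did not meet the rule. Tbx5, a T-box factor of atria, left ventricle and forelimb, was at 94.3, 93.0 and 111 CPM in Ca and at 155, 165 and 173 CPM in FLB, with at most 0.836 CPM in BA and TB. The groups did not overlap, yet the difference between Ca and FLB (-0.73, SE 0.32) did not pass the test (limma adjusted p = 0.0574). That SE rests on 1 estimate of spread shared by all the tissues, including BA and TB, where Tbx5 was near 0. It is therefore not the spread within Ca and FLB alone. Hand2, a basic helix-loop-helix factor, was at 160, 147 and 145 CPM in Ca, at 129, 164 and 186 in BA and at 158, 150 and 148 in FLB, and only TB was low (0.825 to 2.91 CPM). The differences of Hand2 from BA (-0.07, SE 0.32) and FLB (-0.01, SE 0.32) were small beside their errors. Its relative Hand1 was at 85.3, 64.4 and 80.1 CPM in Ca, at 32.8, 39.0 and 40.5 in BA, at most 1.41 in FLB and 0 in TB. It met the rule with the smallest difference against BA (1.02, SE 0.19, limma adjusted p = 3.93e-05).

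Tbx18, a factor of the epicardium and the venous pole, was at 93.2, 85.4 and 90.3 CPM in Ca, at 125 to 140 CPM in FLB and at most 9.43 CPM in BA and TB, and it was lower in Ca than in FLB (-0.55, SE 0.22, limma adjusted p = 0.0379). Shox2, a homeobox gene of the sinus node region and the limb, was at 8.82, 9.96 and 12.1 CPM in Ca, at 8.72 to 10.3 in BA, at most 0.116 in TB and at 92.6 to 100 CPM in FLB. Isl1, a marker of second heart field progenitors, was at 8.69 to 9.82 CPM in Ca and higher in BA (17.2 to 25.5 CPM) and TB (11.8 to 24.8 CPM). Tbx1, a factor of the pharyngeal region, was at 1.05, 2.28 and 5.65 CPM in Ca and at 7.98 to 17.9 in BA, and without Ca replicate 3 it was called lower. The map of these factors by library shows which of them the limb bud or the arch shared with the heart.

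**Figure D3:**
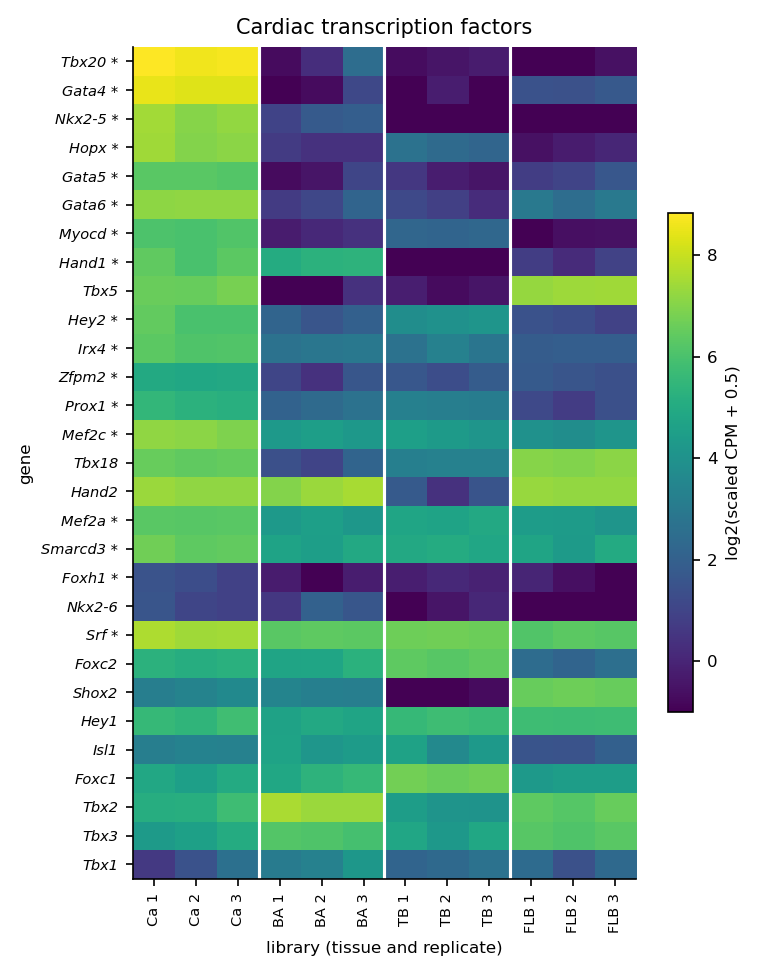
Level of 29 of the 30 cardiac transcription factors (rows) in the 12 libraries (columns, by tissue and replicate), with colour from dark to yellow for log2(scaled CPM + 0.5) and stars for the 17 heart-specific genes. Tbx5, Tbx18 and Shox2 were highest in FLB, and Hand2 was at 129 to 186 CPM in Ca, BA and FLB.

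Genes of the contractile apparatus had some of the largest differences. Of 38 sarcomere and Z-disc genes tested, 37 were higher in heart and none lower, with a median log2 difference of 7.88. The exception was Myom2, an M-band protein, listed at 0, 0.427 and 0.138 CPM in Ca and at 1.74 to 2.66 CPM in TB. Xirp2, at 0.922, 0.427 and 0.414 CPM in Ca and 0 elsewhere, did not pass the filter and was not tested. Together the 39 listed genes made up 4.02 ± 0.33% (SD, n = 3) of the heart libraries, summing to 40330 to 48296 CPM, against 372 to 462 in BA, 916 to 953 in TB and 259 to 292 in FLB. Actc1, the cardiac alpha-actin, was at 9021, 7625 and 7426 CPM in Ca and at 44.1 to 87.9 CPM in TB, above BA (7.63 to 14.0) and FLB (2.59 to 4.40). Myh7, the beta-myosin heavy chain, was at 4939, 4012 and 4375 CPM and Myh6, the alpha-myosin heavy chain, at 2708, 2528 and 2711 CPM. Outside the heart Myh6 reached at most 2.15 CPM and Myh7, leaving out BA replicate 3, 1.18 CPM.

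Troponin T of the heart, Tnnt2, was at 2474, 2007 and 2029 CPM in Ca and at most 7.33 CPM elsewhere. The slow skeletal troponin I gene Tnni1 (1195 to 1501 CPM) and the cardiac one, Tnni3 (329 to 386 CPM), were both higher in heart, with log2 differences of 8.32 (SE 0.32) and 8.08 (SE 0.17). The giant spring protein gene Ttn was at 679, 662 and 929 CPM and the Z-disc protein gene Tcap at 57.0, 44.7 and 44.3 CPM, against at most 7.71 and 0.379 elsewhere. Acta1 and Acta2, the skeletal and smooth muscle alpha-actins, were at 325 to 425 and 1356 to 1748 CPM in heart. Actin genes are close in sequence, so reads could be split between Actc1, Acta1 and Acta2, and these values are uncertain to that extent. Acta1 in TB (10.2 to 21.8 CPM) lay above BA and FLB, where it was at most 1.55 CPM. Myl2, Myl3, Myh6, Myh7, Nppa, Actc1, Pln, Ttn and Hand2 overlap another annotated gene on the opposite strand, as do many of the other genes named. The strand setting of the counting was not stated, so reads of such pairs may not be told apart. Among these, the partner of Myl3 (Pth1r) was itself tested.

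The 10 higher genes with the largest smallest difference, at 16 CPM or more and without overlap, were Myl2, Nppa, Myh6, Myl3, Myh7, Mybpc3, Myl4, Myl7, Hspb7 and Ankrd1. They made up 1.96 ± 0.16% (SD, n = 3) of the heart libraries. Nppa, which encodes the natriuretic peptide of atria and trabeculae, was at 1655, 1335 and 1461 CPM in Ca and at most 0.176 CPM in the other 9 libraries. The essential light chain gene Myl3 was at 1997, 1541 and 1576 CPM, the atrial regulatory light chain gene Myl7 at 1862, 1596 and 1601 CPM and the thick-filament protein gene Mybpc3 at 1766, 1494 and 1432 CPM. Ankrd1, an ankyrin repeat protein of muscle nuclei and sarcomeres, was at 599, 479 and 496 CPM and the small heat shock protein gene Hspb7 at 819, 659 and 669 CPM. Among the 9 other libraries, BA replicate 3 was the highest for 8 of these 10 genes, with 2.63 CPM for both Myl4 and Myl7.

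Promoter letters are shown for 5 of these 10 genes, chosen after the matches were seen, to show windows that hold them. Of the others, Myl4 and the second window of Myh7 held no match, and Hspb7 held an M-CAT match after the start. Myh6 held an M-CAT match before the start and a TATA box match after it. The first window of Myh7 held M-CAT and NKX2-5 matches. The Myl2 window that starts 8227 bases from the nearest GENCODE start held a GATA match, and the one 7762 bases away held a TATA box match. The windows are from RefSeq on GRCm38.p6, and the 250 bases before the annotated gene start are printed on the strand of the gene. Capitals mark matches on either strand to the GATA letters AGATAA, the T-box letters AGGTGT, the NKX2-5 letters TNAAGTG, the M-CAT letters CATTCC (read by TEAD factors) and the TATA box letters TATAAA, and to the CArG box of SRF and the MEF2 site. The letters overlap in none of the 5 windows. The windows are at chr4:148000472-148000721 (plus strand) for Nppa, chr9:110763428-110763677 (plus) for Myl3, chr11:5898783-5899032 (minus) for Myl7, chr2:91117894-91118143 (plus) for Mybpc3 and chr19:36119845-36120094 (minus) for Ankrd1. Their starts lie 0 to 66 bases from the nearest GENCODE transcript start of the gene.
Nppa: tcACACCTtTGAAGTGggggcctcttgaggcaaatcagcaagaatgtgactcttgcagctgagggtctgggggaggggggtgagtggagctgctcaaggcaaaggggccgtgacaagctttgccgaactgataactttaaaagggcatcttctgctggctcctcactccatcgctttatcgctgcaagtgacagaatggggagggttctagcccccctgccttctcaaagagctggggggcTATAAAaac
Myl3: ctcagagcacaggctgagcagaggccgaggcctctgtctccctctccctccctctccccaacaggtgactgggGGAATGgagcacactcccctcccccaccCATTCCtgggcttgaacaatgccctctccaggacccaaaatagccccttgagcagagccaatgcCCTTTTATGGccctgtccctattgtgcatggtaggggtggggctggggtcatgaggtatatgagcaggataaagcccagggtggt
Myl7: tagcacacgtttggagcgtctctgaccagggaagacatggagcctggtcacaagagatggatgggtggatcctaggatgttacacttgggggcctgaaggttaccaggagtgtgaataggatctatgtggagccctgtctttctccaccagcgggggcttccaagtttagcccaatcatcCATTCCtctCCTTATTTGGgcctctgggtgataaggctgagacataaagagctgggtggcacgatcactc
Mybpc3: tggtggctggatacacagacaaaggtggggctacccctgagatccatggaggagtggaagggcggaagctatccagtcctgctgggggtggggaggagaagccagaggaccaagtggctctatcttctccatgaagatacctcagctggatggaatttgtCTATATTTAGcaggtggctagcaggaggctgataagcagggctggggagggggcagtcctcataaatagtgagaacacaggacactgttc
Ankrd1: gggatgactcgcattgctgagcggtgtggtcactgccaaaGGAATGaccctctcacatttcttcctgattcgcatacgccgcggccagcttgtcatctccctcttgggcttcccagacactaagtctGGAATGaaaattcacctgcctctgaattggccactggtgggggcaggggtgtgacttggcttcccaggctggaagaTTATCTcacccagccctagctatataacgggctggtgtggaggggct
In Nppa the T-box and NKX2-5 matches lie side by side at the far end and a TATA box lies close to the start. Myl3 and Myl7 both hold an M-CAT match followed by a CArG box, Mybpc3 holds a MEF2 site, and Ankrd1 holds M-CAT matches and a GATA match.

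Over windows of 300 bases (250 before and 50 after each start), 14.7% of all 32851 windows held the M-CAT letters, 1.63% a CArG box and 0.557% a MEF2 site. In the 12671 windows of the genes tested the shares were 12.4%, 1.34% and 0.474%. In the 169 windows of genes at least 16-fold higher in heart (133 of the 181 genes had a window), the shares were 25.4%, 7.69% and 5.92%. In the 42 windows of the higher sarcomere genes (31 of 37 genes) they were 31%, 23.8% and 9.52%. The shares of the T-box and NKX2-5 letters in the windows of genes at least 16-fold higher were 13% and 8.28%, beside 11% and 8.8% for the genes tested and 13.7% and 11.5% of all windows. The GATA letters were in 16%, beside 6.44% and 11.2%. Windows of 1 gene can overlap, motif letters say nothing of binding, and no test was made of these shares.

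All 17 calcium handling genes tested were higher in heart, with a median log2 difference of 4.01. Sln, also on this list, did not reach 1 CPM in 3 libraries and was not tested. Ryr2, the calcium release channel of the sarcoplasmic reticulum, was at 349, 308 and 355 CPM in Ca and at most 4.13 CPM elsewhere. Atp2a2, the calcium pump of the same membrane, was at 2182, 1961 and 2041 CPM against 290 to 409 in the other tissues, and Pln (phospholamban), the inhibitor of that pump, was at 467, 351 and 361 CPM against at most 0.836. The sodium-calcium exchanger gene Slc8a1 was at 1642, 1370 and 1492 CPM, and in the other tissues it was highest in FLB (27.9 to 36.3 CPM). The L-type channel genes Cacna1c (80.7 to 93.9 CPM) and Cacna1d (25.3 to 29.7 CPM) were 1.47 (SE 0.07) and 2.67 (SE 0.14) higher on the log2 scale. The smallest difference of the list was that of Fkbp1b, a partner of the release channel (0.59, SE 0.16). Its call was lost with CPM as deposited and without Ca replicate 1 or 3 or BA replicate 1 or 3.

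Of 23 ion channel and gap junction genes tested, 18 were higher (78.3%) and 2 lower (8.70%), beside 28.3% and 28.1% of all genes tested. The list median was 3.15. The pacemaker channel gene Hcn4 was at 57.5, 61.2 and 62.8 CPM in Ca against at most 4.66, and Kcnj5, a subunit of the acetylcholine-gated potassium channel, at 185, 156 and 164 CPM against at most 1.04. Gap junction genes went in both directions. Gja5 (connexin 40) was at 139, 116 and 138 CPM in Ca against 13.2 to 21.9, a higher value, while Gja1 (connexin 43) was lower, at 244, 222 and 247 CPM against 353 to 548, and Gjc1 (connexin 45) was lower by 0.53 on the log2 scale (SE 0.05). Hcn2, Kcnj2 and Kcnd3 did not meet the rule. Hcn2 was at 0.527 to 1.24 CPM in Ca.

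All 9 atrial and natriuretic peptide genes tested were higher (median 7.31), and so were all 7 ventricular genes (median 9.30). Sln, a listed atrial gene at 1.18, 0.427 and 1.24 CPM in Ca and at most 0.506 elsewhere, was not tested. In any list, genes under 1 CPM elsewhere entered the test only when every heart library reached 1 CPM. Their higher calls were therefore largely set by the filter. Nppb, the natriuretic peptide gene next to Nppa, was at 99.7, 81.4 and 74.2 CPM in Ca and at most 0.239 CPM elsewhere. With the 3-library filter and 1 heart library left out, 5 atrial and 4 ventricular genes stayed as the lowest counts, because genes on in heart only were no longer tested. With 2 libraries enough, the counts were at least 9 and 7. The lists share members with that of the sarcomere, among them Myl2, Myl3, Myl4, Myl7, Myh6 and Myh7.

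**Figure D4:**
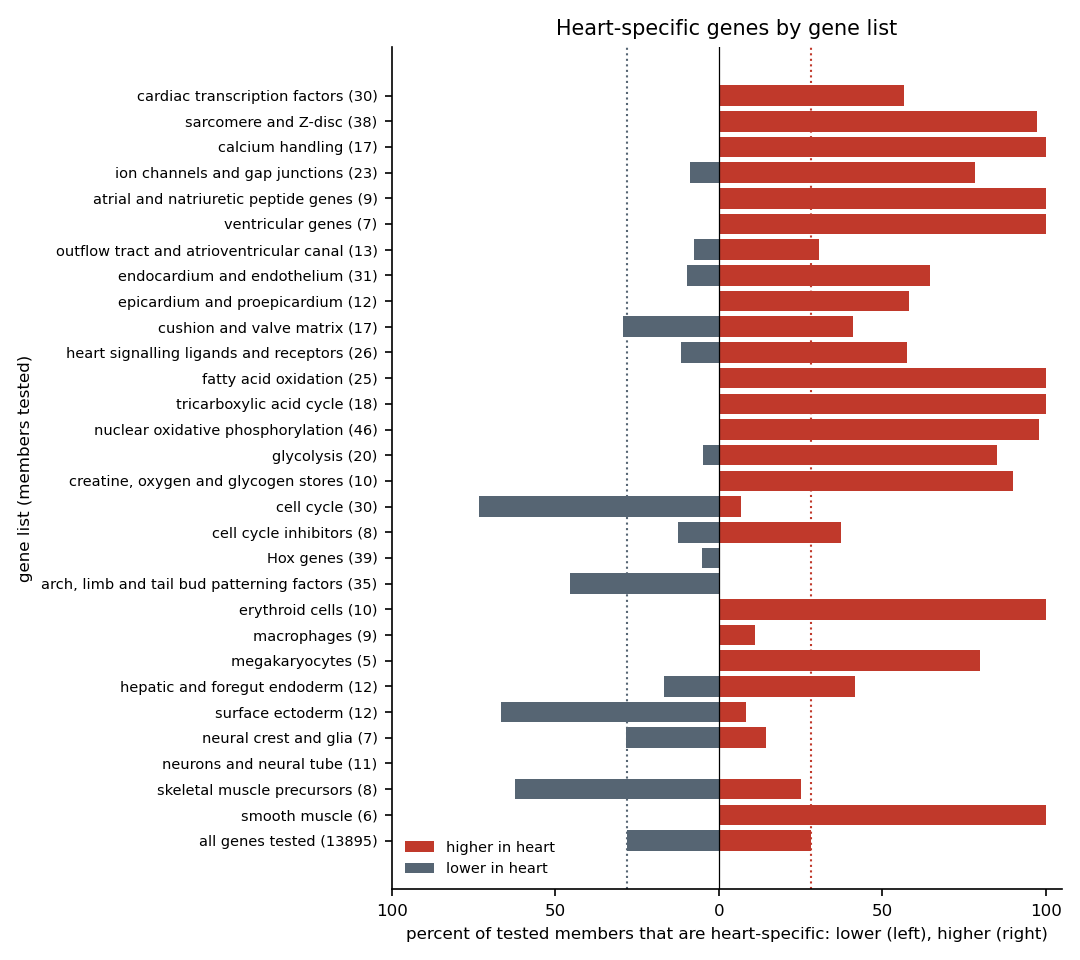
Percent of the tested members of each of 29 gene lists (rows, number tested in brackets) that were heart-specific, higher to the right in red and lower to the left in grey, with dotted lines at the share of all genes tested (28.3% and 28.1%). Calcium handling, fatty acid oxidation and tricarboxylic acid cycle genes were all higher, and cell cycle, surface ectoderm and skeletal muscle precursor lists had more lower than higher members.

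Among genes of the outflow tract and atrioventricular canal, 4 of 13 were higher (30.8%, close to the 28.3% of all genes tested), 1 was lower (2 without Ca replicate 3, with Tbx1) and 8 did not meet the rule. Higher were Bmp2 (22.3 to 22.9 CPM against at most 7.66), a ligand of the atrioventricular myocardium, and Wnt11, Sema3c and Tgfb2. Tgfb2 (91.9 to 98.6 CPM against 30.8 to 86.4) lost its call without any 1 of the heart libraries or without TB replicates 1 or 2 or FLB replicates 1 or 2. That call was also lost with CPM as deposited and with limma without its trend and robust options. Lower was Fgf8, a ligand of the pharyngeal and limb epithelia, at 0.790, 0.427 and 0.276 CPM in Ca against 8.60 to 24.1 CPM. The canal repressors Tbx2 and Tbx3 were at 34.4 to 54.8 and 20.1 to 32.3 CPM in Ca, below BA (160 to 192 and 60.1 to 72.4 CPM) and FLB (73.9 to 92.6 and 69.7 to 79.5 CPM). Tbx2 lay above TB (at most 21.5 CPM) and Tbx3 overlapped it (18.2 to 28.2 CPM).

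The endothelial and endocardial list had 20 higher (64.5%) and 3 lower genes (9.68%) of 31, beside 28.3% and 28.1% of all genes tested. Its median was 1.20, and 8 genes did not meet the rule. Pecam1 was at 154, 140 and 150 CPM in Ca against 45.7 to 61.4, Cdh5 (VE-cadherin) at 239, 228 and 219 against 75.4 to 120, and Kdr (a VEGF receptor) at 159, 167 and 156 against 62.1 to 90.8 CPM. Npr3, a natriuretic peptide clearance receptor, was at 205, 185 and 172 CPM against 14.9 to 30.3 CPM, a log2 difference of 2.93 (SE 0.08, limma adjusted p = 3.09e-17). Nfatc1, a factor of endocardial cushion and valve formation, was at 72.3, 61.0 and 62.9 CPM against 9.16 to 29.0, and the angiopoietin receptor gene Tek at 198, 168 and 171 against 16.9 to 28.9. The flow-responsive genes Klf2 (25.6 to 32.0 CPM) and Nos3 (56.3 to 75.3 CPM) had log2 differences of 2.69 (SE 0.16) and 2.75 (SE 0.13).

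In the same list, Cldn5, Fli1 and Robo4 were lower in heart. Fli1, an ETS factor of endothelium, was at 13.8, 21.3 and 17.2 CPM in Ca against 29.5 to 61.7, and Robo4, an endothelial guidance receptor, at 3.55, 4.55 and 4.14 against 10.7 to 17.9. Cldn5, a tight junction protein of endothelium, was at 3.69, 8.96 and 5.79 CPM against 12.3 to 26.8. In each of these 3 genes the heart libraries lay below all others, as they did in 28% of all genes tested.

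Epicardial and proepicardial genes were higher in 7 of 12 cases (58.3%, beside 28.3% of all genes tested) and lower in none (median 2.08). Wt1, the zinc finger factor of mesothelium, was at 49.5, 46.8 and 49.0 CPM in Ca and at most 4.75 CPM elsewhere. Upk3b, a mesothelial surface protein, was at 143, 124 and 158 CPM against at most 2.15, and the helix-loop-helix factor Tcf21 at 52.3, 44.4 and 53.0 against at most 5.38. The mesothelial receptor gene Lrrn4 was at 71.8, 59.6 and 74.8 CPM against at most 1.79. Aldh1a2, the retinoic acid synthesizing enzyme, did not meet the rule, being at 39.8 to 68.0 CPM in Ca and at 75.3 to 92.6 in TB. Without Ca replicate 3, 1 gene of the list, Bnc2, was called lower.

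Of 17 cushion and valve genes, 7 were higher (41.2%) and 5 lower (29.4%), the lower share being close to that of all genes tested (28.3% higher and 28.1% lower). Matrix genes were among the higher ones. Hapln1, a link protein of hyaluronan matrix, was at 384, 314 and 307 CPM against 18.4 to 89.2, Postn (periostin) at 234, 148 and 188 against 6.96 to 62.4, and the proteoglycan gene Vcan at 872, 797 and 940 against 411 to 638. The lower genes were the mesenchymal factors Twist1, Sox9, Snai1, Snai2 and Msx1, which the arch and limb mesenchyme also uses. Twist1 was at 36.3, 38.6 and 60.3 CPM in Ca, against 102 to 128 in TB and 194 to 240 in BA and FLB.

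Ligands and receptors that signal within the heart were higher in 15 of 26 cases (57.7%) and lower in 3 (11.5%). The shares of all genes tested were 28.3% and 28.1%, and the list median was 1.00. Bmp10, a BMP ligand of trabecular and atrial myocardium, was at 40.9, 34.7 and 31.0 CPM in Ca and listed at 0 in all 9 other libraries, so its mean was at least 67.4-fold higher, taking the floor of 3 reads per library for them. Erbb4, the neuregulin receptor of the myocardium, was at 34.4, 31.7 and 33.2 CPM against at most 0.478, and its endocardial ligand gene Nrg1 at 5.13, 5.41 and 4.28 CPM, against 1.65 to 3.2 in BA and TB and at most 0.502 in FLB. Angpt1, the ligand of TEK, was at 145, 120 and 119 CPM against 7.86 to 25.3, and Wnt2 at 24.1, 26.9 and 36.1 against at most 4.40. Edn1 (endothelin) was at 14.1, 8.39 and 9.52 CPM against at most 1.91. The growth factor gene Igf2 was at 7323, 6479 and 6795 CPM, with FLB next (4597 to 4677 CPM). Lower were Apln (1.18 to 1.93 CPM against 6.83 to 19.6), its receptor gene Aplnr, and Pdgfra, a receptor of mesenchyme (108, 117 and 156 CPM against 186 to 497).

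Genes of energy metabolism were mostly higher. All 25 fatty acid oxidation genes were higher in heart (median 1.63), as were all 18 tricarboxylic acid cycle genes (median 1.12) and 45 of 46 nuclear genes of oxidative phosphorylation (median 1.12). Cpt1b, the muscle carnitine transferase that admits fatty acids to mitochondria, was at 208, 169 and 156 CPM in Ca and at most 3.87 CPM elsewhere, with a log2 difference of 5.98 (SE 0.58). The fatty acid binding protein gene Fabp3 was at 175, 141 and 139 CPM against at most 4.36, and the lipase gene Lpl at 272, 232 and 235 CPM against 21.6 to 40.1. Ppargc1a, a coactivator of mitochondrial genes, was at 55.0, 50.5 and 51.0 CPM against at most 6.91. The ATP synthase gene Atp5b, which all 4 tissues use, differed by less, with 3280 to 3731 CPM against 1320 to 1557.

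Muscle forms of cytochrome oxidase subunits were at or near 0 outside heart. Cox6a2 was at 64.0, 61.5 and 55.7 CPM in Ca with at most 0.114 elsewhere, Cox7a1 was at 30.3 to 36.1 CPM with at most 0.632, and Cox8b was at 3.45 to 3.98 CPM with 0 in all 9 other libraries, at least 7.10-fold higher on the same floor. Cox7c, at 9.48, 11.4 and 9.93 CPM in Ca against 5.02 to 11.6, did not meet the rule. Of 20 glycolytic genes 17 were higher and 1 lower (median 1.04). Hk1, a hexokinase, was at 561, 489 and 457 CPM against 34.6 to 63.4, the phosphofructokinase gene Pfkp at 234, 207 and 193 against 4.05 to 8.72, and the muscle phosphoglycerate mutase gene Pgam2 at 257, 216 and 211 against at most 2.82. Slc2a3, a glucose transporter, was lower (77.2 to 93.5 CPM against 88.9 to 382, highest in TB), while Slc2a1 was higher (554 to 639 CPM against 96.1 to 271). The Slc2a3 call was lost without Ca replicate 1 or 2 or BA replicate 1 or 2. That call was also lost with median-of-ratios scaling, with limma without its trend and robust options, and with the 9 other libraries as 1 group. Hk2 and Eno1 did not meet the rule, and Eno1, Gapdh and Cox7c have close copies in the genome that could share their reads.

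Stores of phosphate, oxygen and glycogen followed the same direction in 9 of 10 genes (median 2.28, or 2.15 with the gene at 0 elsewhere put at its bound). Pygm, the muscle glycogen phosphorylase, was at 281, 239 and 221 CPM in Ca and at most 2.64 CPM elsewhere, and Mb (myoglobin) at 48.3, 33.1 and 33.4 CPM against at most 0.632. Ckm, the muscle creatine kinase, was low in heart itself, at 3.69, 3.56 and 3.86 CPM against at most 0.335. The brain form Ckb did not meet the rule.

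Genes of the cell cycle were mostly lower. Of 30 tested, 22 were lower (73.3%) and 2 higher (6.67%), with a median log2 difference of -0.48 against -0.05 over all genes. Top2a, a topoisomerase of dividing cells, was at 474, 513 and 507 CPM in Ca against 767 to 866, the replication helicase gene Mcm5 at 221, 239 and 227 against 344 to 388, and the checkpoint kinase gene Bub1 at 96.5, 98.6 and 99.6 against 166 to 196. Mki67 did not follow, with 558, 576 and 589 CPM in Ca inside the range of the other libraries (517 to 698) and a difference of -0.02 (SE 0.04). Higher were the D-type cyclin genes Ccnd3 (544, 501 and 481 CPM against 215 to 256) and Ccnd2 (0.16, SE 0.03). Ccnd2 lost its call with CPM as deposited and without Ca replicate 1 or TB replicate 2, which left 1 higher gene. Among 8 cell cycle inhibitors 3 were higher (37.5%) and 1 lower (12.5%), beside 28.3% and 28.1% of all genes tested. The imprinted inhibitor gene Cdkn1c was at 1579, 1405 and 1398 CPM in Ca, at 494 to 531 in FLB and at 210 to 373 in BA and TB, a log2 difference of 2.09 (SE 0.06, limma adjusted p = 1.59e-12). Cdkn2c and Rbl2 were also higher and Rbl1 was lower, by 0.22 (SE 0.05). The count of lower cycle genes lay between 22 and 24 in all fits run, other scalings included.

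Among the 10 genes with the largest smallest decrease, with at least 16 CPM in every other tissue and no overlap, were Cxcl14, Tfap2b, Krt5, Crabp2, Wnt6, Sfn, Pcdh19, Lrig3 and Gjb2. Krt5, a basal keratin, was at 0, 0 and 0.827 CPM in Ca against 14.6 to 91.7, a difference of -5.67 (SE 0.27, limma adjusted p = 1.39e-08). The chemokine gene Cxcl14 was at 0.395, 0.142 and 6.62 CPM against 54.8 to 122, the ligand gene Wnt6 at 0.395, 0.854 and 7.03 against 27.7 to 32.8, and the epithelial 14-3-3 gene Sfn at 0.658, 0.569 and 7.45 against 27.3 to 38.7. Crabp2, a retinoic acid binding protein, was at 9.22, 9.67 and 25.9 CPM against 231 to 432. Ca replicate 3 was the highest heart library for 8 of these 9 genes, the exception being Pcdh19, a protocadherin (0.527, 3.41 and 1.38 CPM).

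Hox genes, which assign position along the body axis, were low in heart and arch. The 39 genes summed to 35.0 to 80.0 CPM in Ca and 30.2 to 78.5 in BA, against 1465 to 1491 in TB and 1069 to 1101 in FLB. In heart 22 of them were under 3 reads in every library, 14 of these at 0. Of the 39 genes, Hoxa2 and Hoxd1 (5.13%) met the rule for lower genes, beside 28.1% of all genes tested. Hoxa10 was at 0 in all Ca and BA libraries, at 83.8 to 99.3 CPM in TB and at 180 to 199 in FLB. Of 35 patterning factors of arch, limb and tail bud, 16 were lower (45.7%, beside 28.1% of all genes tested) and none higher. Their sums were 183 to 320 CPM in Ca, 2122 to 2239 in BA, 1227 to 1259 in TB and 1816 to 1836 in FLB. Prrx1, a factor of limb and facial mesenchyme, was at 13.8, 16.2 and 30.8 CPM in Ca against 107 to 133 in TB and 496 to 693 in BA and FLB. Ca replicate 3 had the highest sum of this list.

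Markers of other cell types were followed by list. All 10 erythroid genes tested were higher, with a median of 2.79. Their sums were 36416, 30780 and 25110 CPM in Ca, against 3004 to 3687 in BA, 6073 to 7029 in TB and 2921 to 4190 in FLB, which was 2.87 ± 0.47% (SD, n = 3) of the heart libraries. Hbb-y, an embryonic beta-globin, was at 17064, 13826 and 11908 CPM in Ca and at 1328 to 3187 CPM elsewhere, and the red cell factor Gata1 at 24.6, 34.9 and 20.5 CPM against 2.27 to 6.38. Hba-a1 was higher as well, but its near-identical copy Hba-a2 was listed at or close to 0, so the alpha-globin values are uncertain. Megakaryocyte genes were higher in 4 of 5 cases (Pf4 at 15.1, 32.2 and 17.4 CPM against at most 6.6), with sums of 47.1 to 84.8 CPM in Ca against 10.4 to 20.2 elsewhere. Of 9 macrophage genes 1, Lyz2, was higher (11.1%, beside 28.3% of all genes tested), at 29.2, 21.6 and 21.5 CPM against 0.518 to 2.02. The sums, of which Lyz2 was a large part in Ca, were 40.8, 60.2 and 44.7 CPM there against 20.7 to 40.3. The median log2 difference of the list was -0.24. Without Ca replicate 2, the macrophage gene C1qc was called lower.

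Of 12 hepatic and foregut endoderm genes 5 were higher (41.7%) and 2 lower (16.7%), beside 28.3% and 28.1% of all genes tested. The list summed to 64.9, 1831 and 318 CPM in Ca replicates 1 to 3, 119 to 133 in BA, 132 to 158 in TB and 84.8 to 95.7 in FLB. The defining markers Afp and Alb were higher in every heart library than elsewhere. Without Ca replicate 1, 2 or 3 the list had 2, 1 and 1 higher genes, or 9, 5 and 5 with 2 libraries enough. Surface ectoderm had 8 lower genes of 12 (66.7%) and 1 higher (8.33%). Its sums were 169, 173 and 222 CPM in Ca against 326 to 436 elsewhere, and the defining markers Trp63 and Cdh1 were at 0.854 to 3.59 and 3.42 to 10.8 CPM. The higher member was Perp, a desmosome protein. Neural crest and glia had 1 higher gene of 7 (14.3%), Ednrb, at 120, 103 and 99.3 CPM against 4.66 to 14.0. The list had 2 lower genes (28.6%, close to the 28.1% of all genes tested), or 1 without Ca replicate 1 or 2, when Foxd3 lost its call. The defining marker Sox10 was at 0.427 to 1.79 CPM in heart. None of 11 neuronal genes met the rule, and their sum was 32.9 to 37.8 CPM in Ca against 66.1 to 240 elsewhere.

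Skeletal muscle precursors had 5 lower genes (62.5%) and 2 higher (25%) of 8, beside 28.1% and 28.3% of all genes tested. The list summed to 30.9 to 35.4 CPM in Ca and 119 to 146 in TB. Myog, the myogenic factor, was at 0.922, 0.285 and 2.21 CPM in Ca and at 15.3 to 23.6 CPM in TB, while the fast troponin genes Tnnt3 (8.43 to 9.25 CPM) and Tnni2 (19.5 to 24.4 CPM) were higher in heart. TB, with the highest Myog, also had the highest values of Actc1 and Acta1 outside heart. All 6 smooth muscle genes were higher (median 3.91), with Cnn1, a calponin, at 354, 281 and 288 CPM against at most 1.43, and Tagln at 407, 329 and 323 against 3.63 to 40.4. Some of these genes, such as Tagln, are also active in embryonic myocardium, and which cells held these RNAs was not tested.

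**Figure D5:**
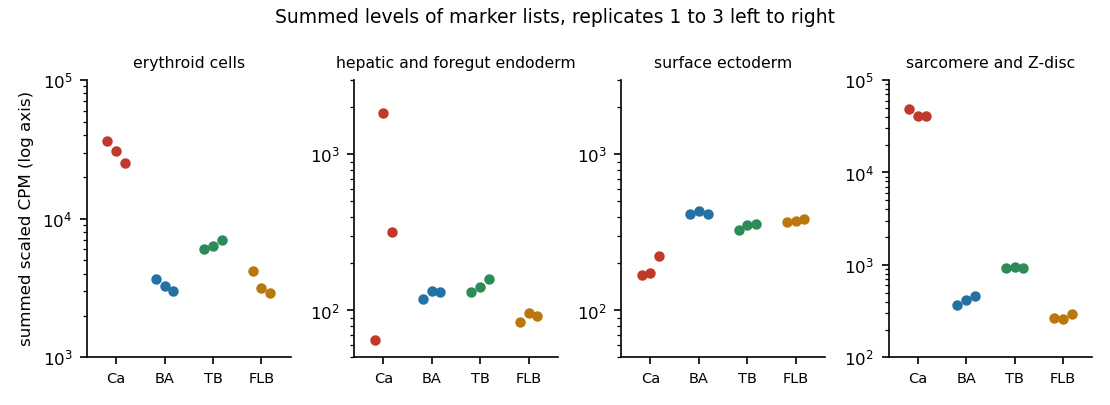
Summed scaled CPM (log axis) of the genes of 4 lists, 1 point per library with replicates 1 to 3 from left to right within each tissue. Erythroid and sarcomere sums were higher in all heart libraries than in the other 9, the hepatic sum ranged from 64.9 to 1831 CPM over the hearts, and the surface ectoderm sum was lowest in heart, with replicate 3 the highest of the hearts.

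Of the higher heart-specific genes, 111 had a heart mean of at least 1 CPM and were under 3 reads in each of the 9 other libraries. Of these, 27 had a mean of at least 16 CPM and 3 of at least 100 CPM. These 3 were Nppa, Smpx (305 ± 38.3 CPM, SD, n = 3), a small muscle protein, and Fsd2 (197 ± 17.4 CPM, SD, n = 3). Smpx and Fsd2 belong to no list and were picked once their values were known. The potassium channel gene Kcnk3 (69.5, 57.0 and 63.6 CPM) and the thin filament gene Lmod2 (97.8, 73.3 and 83.9 CPM) were also among the 111, as were Alb and Serpina6, which are high in Ca replicate 2.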

How the data were processed

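RNA was measured in whole tissue of E10.5 embryos, in 3 libraries each of Ca, BA, TB and FLB. Stranded mRNA was sequenced from 1 end, and the authors aligned the reads to mm10 (HISAT2 2.0.4), summarised them by gene with Cuffdiff and deposited CPM for 23279 genes, each library adding up to 1000000. No deposited count table was used here, so count models were not run. Of the 27 deposited columns 12 were compared, and groups are those of the sample labels. Columns of other groups serve only the closing section.

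The value of 1 read, taken from the spacing of low CPM, gave the depth. Floors of 3 reads cover counting error only, as reads without molecular identifiers are not independent molecules. Scaling of CPM over the 12 libraries used trimmed means of M-values without weights (trims of 30% for ratios, 5% for intensities). Genes reaching 1 CPM in 3 or more libraries entered limma 3.58.1 in R 4.3.3, with its trend and robust options, on log2(scaled CPM + 0.5), with a 2-sided test of each contrast and Benjamini-Hochberg adjustment over 13895 genes. All 4 groups shared 1 estimate of the spread, and differences on this scale understate changes of low genes. The labels do not tie libraries to single embryos, so p-values measure the spread between libraries, which may be technical. Python 3.11.15 with numpy 2.4.6, pandas 2.3.3 and matplotlib 3.10.9 served for tables, motifs and figures. The test was also run on simulated reads with known changes in few genes and otherwise equal tissue means. As many genes differ in these data, that simulation cannot check the scaling or the spread here.

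The comparison, its rule and the 29 gene lists were chosen with earlier results of these data known. Genes named are the 3 markers, members of the lists, the 10 genes in each direction with the largest smallest single-tissue difference (at 16 CPM or more, no overlap) and the 5 with the widest range over the heart libraries, and 4 genes of these lists are not reported here. No set test was made, and lists are described by counts and medians. Gene positions and promoter windows are from RefSeq on GRCm38.p6, and overlaps from GENCODE on the same assembly. Alternatives were CPM as deposited, median-of-ratios scaling, other filters and pseudocounts, limma without trend and robust estimation, 6 libraries per pair of tissues, the 9 other libraries as 1 group, the replicate number as a block, at least 2-fold differences, and each library left out. Leaving out a heart library with a filter in 2 libraries was added after seeing the data.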

Additional observations from a re-analysis of the deposited data

Results flagged for a closer look

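Of the 111 genes that were higher in heart and under 3 reads in all 9 other E10.5 libraries compared, some were above 3 reads in every library of groups outside the comparison. There were 18 in the early FLBs, 7 in the early HLBs, 19 in ES–FLB and 13 in ES–HLB cells, the last pair being limb bud-like mesenchyme grown from ES cells and sorted for Hand2::mEGFP. In the E10.5 HLBs there were 0, counted over 2 libraries because replicate 2 lacks values for several chromosomes. The early limb bud libraries are the deepest of the series, so their floor of 3 reads is lower. Levels there were low. The highest group mean was 3.95 CPM in the early FLBs (Sfrp5, a secreted Wnt antagonist), 3.51 CPM in the early HLBs (Lrrc14b) and 6.35 CPM in ES–FLB cells (Alb), while Kcnk3, a potassium channel gene, reached 20.3 CPM in ES–HLB cells against 63.4 ± 6.24 CPM (SD, n = 3) in heart. Sfrp5 and Lrrc14b were named after their values were seen. These genes were listed because they passed the floor of 3 reads in libraries outside the comparison. In the early limb buds that floor (0.1355 to 0.1527 CPM) was below that of the 9 libraries compared. Passing it there need not mean a higher level than in those 9 libraries. The cause was not tested.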

How the results depend on the processing

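The 10 counts of genes (higher and lower, for the mean of 3 tissues, each single tissue and the heart-specific rule) were recomputed in 25 other fits and at 2 stricter limits. Of 262 values, 252 stayed within 1.5 times the count reported. The other 10 were those of genes at least 2-fold different, 2247 higher and 1288 lower against the mean, 2322 and 1374 against BA, 2210 and 1315 against TB, 2405 and 1343 against FLB, and 1688 and 636 for heart-specific genes, where the stricter limit itself sets the count. Leaving out each library in turn gave 4648 to 5228 higher and 5412 to 5681 lower against the mean, 4529 to 5064 and 5030 to 5314 against BA, 4428 to 4971 and 4883 to 5294 against TB, 4552 to 5089 and 5052 to 5329 against FLB, and 3399 to 3896 and 3677 to 3863 for heart-specific genes. Replicate numbers are shared between tissues, but no label ties a number to shared embryos. Over the 18 same-numbered pairs of libraries the correlation of deviations was -0.170 to 0.229 (median 0.083, 8 over 0.1). In 36 pairs of different numbers the median was -0.026 (5 over 0.1, the highest 0.308). The sex-linked genes Xist and Ddx3y, described below, also varied by replicate number in a similar way across tissues. Whether libraries of the same number share embryos was not tested, and the main fit did not use the number. With the number as a replicate block there were 3947 higher and 3927 lower heart-specific genes. Of 144 named genes with a call, 136 kept it wherever they were tested. Itih2 lost it with 6 libraries per pair, Hoxd1 with the 9 libraries as 1 group, and T, Tgfb2, Slc2a3, Fkbp1b, Foxd3 and Ccnd2 in 4 to 14 fits each. With 2 added before the logarithm the differences of Shox2 and Lhx9 from the mean changed sign, to -0.095 and -0.036, and neither is heart-specific. Differences of genes near 0 in the other tissues depend on the 0.5 added and on a floor of up to 0.528 CPM.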

Other observations

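Sex-linked transcripts differed between libraries of different replicate number within every tissue. Xist, the RNA that coats the inactive X chromosome, was at 193, 360 and 77.4 CPM in Ca replicates 1 to 3, at 575, 871 and 223 in BA, at 98.8, 486 and 125 in TB and at 506, 832 and 327 in FLB. The Y-linked gene Ddx3y was at 21.7, 10.4 and 42.6 CPM in Ca, at 23.7, 13.1 and 38.4 in BA, at 43.5, 12.3 and 45.4 in TB and at 31.1, 14.6 and 49.8 in FLB. In each tissue replicate 2 had the most Xist and the least Ddx3y, and every library held both RNAs. The log2 differences of heart from the mean of the other tissues were -1.02 for Xist and -0.31 for Ddx3y (limma adjusted p = 0.197 and 0.658), and with the replicate number as a block the adjusted p was 0.0228 and 0.0378. Both genes were named after their values were seen.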
